A study of Mus musculus with 6 samples.

Results

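The embryonic, perinatal, adult fast, slow and cardiac myosin heavy chain genes were examined in the RNA of mouse knee joint cartilage at postnatal day 6 (P6). The 7 genes *Myh1*, *Myh2*, *Myh3*, *Myh4*, *Myh6*, *Myh7* and *Myh8* were taken from the table of 55487 genes by their symbols. Each was also expressed as its share of the summed counts of the 7 genes within a library. Of the 55487 genes, 17175 passed the filter on low counts, among them 7 of the 7 myosin genes. Poly(A) RNA was sequenced from 3 *Hbb*-cKO libraries, in which the labels give a conditional knockout of *Hbb* in chondrocytes, and from 3 WT libraries. Total counts were 17405688 to 20969914 in the *Hbb*-cKO libraries, against 16544800 to 17475496 in the WT libraries. The study used a floxed allele of *Hbb-bs* and *Hbb-bt*, made on the C57BL/6J background, with a *Prx1* Cre, active in limb mesenchyme, or a tamoxifen-inducible *Col2a1* CreERT2, active in chondrocytes. The study gives the name *Hbb*-cKO to the offspring of the *Col2a1* CreERT2 cross, but its sequencing methods and the labels name no driver and no tamoxifen dose. The sources used here do not state whether the WT mice carried floxed alleles or Cre, or how many mice went into a library. The p-values therefore reflect only the spread between these libraries.

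Sarcomeric myosin heavy chain is the motor protein of the thick filament, and each isoform comes from a gene of its own. In limb muscle of the mouse the embryonic (*Myh3*) and slow (*Myh7*) chains appear early, the perinatal chain (*Myh8*) accumulates during fetal growth, and the adult fast chains IIA (*Myh2*), IIX (*Myh1*) and IIB (*Myh4*) take over after birth. *Myh7* stays in slow fibres and is also the β chain of the heart, while *Myh6* encodes the α chain of the heart. These genes are markers of striated muscle rather than of chondrocytes, and in the mouse the first weeks after birth are the time at which the isoforms are exchanged.

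On GRCm38, 5 of the 7 genes lie side by side on the plus strand of chromosome 11, from *Myh3* (67078300 to 67102291) through *Myh2* (67171027 to 67197517), *Myh1* (67200052 to 67224575) and *Myh4* (67238029 to 67260446) to *Myh8* (67277124 to 67308634). *Myh6* (54941921 to 54966927) and *Myh7* (54970684 to 54994626) are neighbours on the minus strand of chromosome 14. The RefSeq starts of *Myh1* (67200102) and *Myh4* (67237812) differ from the gene starts given here. RefSeq windows of GRCm38.p6, from 250 bases before to 50 bases after each annotated RefSeq start, were available for 7 of the 7 genes. They were searched for identical runs of at least 12 bases in at least 3 of the genes, since the 5 clustered genes shared a locus but not a pattern across the libraries. The stretches before the starts of the clustered genes are shown with these runs in capitals. They cover chr11:67237562-67237811 for *Myh4*, chr11:67199852-67200051 for *Myh1*, chr11:67170777-67171026 for *Myh2*, chr11:67276874-67277123 for *Myh8* and chr11:67078050-67078299 for *Myh3*, each on the plus strand.
Myh4: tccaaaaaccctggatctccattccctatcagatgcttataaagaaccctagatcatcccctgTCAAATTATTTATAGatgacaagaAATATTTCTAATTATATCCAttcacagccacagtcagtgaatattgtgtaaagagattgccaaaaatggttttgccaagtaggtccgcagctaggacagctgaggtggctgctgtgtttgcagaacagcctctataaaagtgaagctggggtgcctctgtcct
Myh1: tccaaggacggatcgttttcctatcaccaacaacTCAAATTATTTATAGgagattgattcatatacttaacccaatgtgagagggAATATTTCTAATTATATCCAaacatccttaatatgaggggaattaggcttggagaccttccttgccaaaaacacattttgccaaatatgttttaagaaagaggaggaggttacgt
Myh2: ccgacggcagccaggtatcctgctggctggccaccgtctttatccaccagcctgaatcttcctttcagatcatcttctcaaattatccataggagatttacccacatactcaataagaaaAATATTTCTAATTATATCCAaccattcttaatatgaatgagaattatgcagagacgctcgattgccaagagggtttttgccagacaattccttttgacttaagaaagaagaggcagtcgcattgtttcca
Myh8: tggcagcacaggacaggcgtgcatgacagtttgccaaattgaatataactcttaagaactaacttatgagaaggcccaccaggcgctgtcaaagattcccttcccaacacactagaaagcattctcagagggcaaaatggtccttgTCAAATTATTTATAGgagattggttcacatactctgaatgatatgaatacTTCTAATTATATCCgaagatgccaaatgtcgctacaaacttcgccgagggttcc
Myh3: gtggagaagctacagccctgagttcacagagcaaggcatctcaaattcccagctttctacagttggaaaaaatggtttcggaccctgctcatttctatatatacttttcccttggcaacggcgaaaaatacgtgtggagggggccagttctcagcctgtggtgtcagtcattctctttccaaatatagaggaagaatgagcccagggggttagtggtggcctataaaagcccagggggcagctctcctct

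The run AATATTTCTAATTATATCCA stood 165 bases before the RefSeq start of *Myh1*, 130 bases before that of *Myh2* and 163 bases before that of *Myh4*. It occurred in these 3 windows only, which were 0.00913% of the 32851 windows of all genes. *Myh8* held it with the substitutions T5C and A20G, counted from 1 at the 5′ end of the run, so that 14 bases of it, TTCTAATTATATCC, were identical in *Myh1*, *Myh2*, *Myh4* and *Myh8*. The run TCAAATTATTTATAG was found in *Myh1*, *Myh4* and *Myh8* and in no other window searched. The best match to the 20-base run had 8 mismatches in *Myh3*, 7 in *Myh7* and 10 in *Myh6*. A match to the MEF2 motif in *Myh1*, *Myh4* and *Myh8*, a motif found in 3.19% of all windows on either strand, lay within the 15-base run and overlapped a TATAAA on the other strand. The perinatal gene *Myh8* thus shared 14 bases of the 20-base run with *Myh1*, *Myh2* and *Myh4*. It shared the identical 15-base run with *Myh1* and *Myh4* but not with *Myh2*, whose stretch holds the similar tcaaattatccatag. *Myh3*, the first gene of the cluster, carried none of these runs.

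The dissected tissue held RNA of cartilage and of skeletal muscle in every library, and the libraries differed in both. The 12 skeletal muscle markers summed to 29911, 23357 and 23983 CPM (counts scaled to TMM library sizes) in the *Hbb*-cKO libraries, against 26831, 30109 and 42974 CPM in the WT libraries. The 12 cartilage markers summed to 17693, 58961 and 42317 CPM in *Hbb*-cKO, against 40012, 44200 and 34596 CPM in WT. WT replicate 3 stood apart by its muscle and also by its Schwann cell markers, which summed to 82.4, 44.1 and 61.3 CPM in *Hbb*-cKO, against 60.5, 49.2 and 196 CPM in WT. The targeted genes were lower in every *Hbb*-cKO library, with a mean of 1956 CPM for *Hbb-bs* in *Hbb*-cKO, against 4753 CPM in WT (log2 fold change -1.28). Erythroid genes that were not targeted were lower by as much, with log2 fold changes of -1.31 for *Hba-a1*, -1.43 for *Hba-a2* and -1.60 for *Alas2*. Counts of *Xist*, made in females, were 5052, 6 and 8079 in *Hbb*-cKO, against 10430, 8739 and 2725 in WT, and 4 Y-linked genes summed to 1010, 2907 and 1242 counts in *Hbb*-cKO, against 0, 0 and 2109 counts in WT. *Hbb*-cKO replicates 1 and 3 and WT replicate 3 held both, so that a library need not be 1 mouse and what n = 3 counts is uncertain. The part of sex in the myosin values was not tested.

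The 7 genes spanned a wide range of levels, with *Myh8* first and *Myh6* last in both groups. Scaled by transcript length, *Myh8* averaged 989 CPM per kb in *Hbb*-cKO and 1263 CPM per kb in WT. *Myh4* averaged 464 CPM per kb in *Hbb*-cKO and 393 in WT, and *Myh1* averaged 241 in *Hbb*-cKO and 235 in WT. *Myh3* followed at 49.7 CPM per kb in *Hbb*-cKO and 36.7 in WT, *Myh2* at 44.5 in *Hbb*-cKO and 24.1 in WT, *Myh7* at 38.7 in *Hbb*-cKO and 22.8 in WT, and *Myh6* at 1.65 in *Hbb*-cKO and 3.24 in WT. In every library *Myh8* lay above *Myh4*, *Myh4* above *Myh1*, and *Myh1* above the other genes. *Myh3*, *Myh2* and *Myh7* lay close together, and their order differed between libraries. By CPM, *Myh8* ranked 8 in *Hbb*-cKO and 9 in WT among the 17175 tested genes, in a tissue sampled as cartilage.

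**Figure D1:**
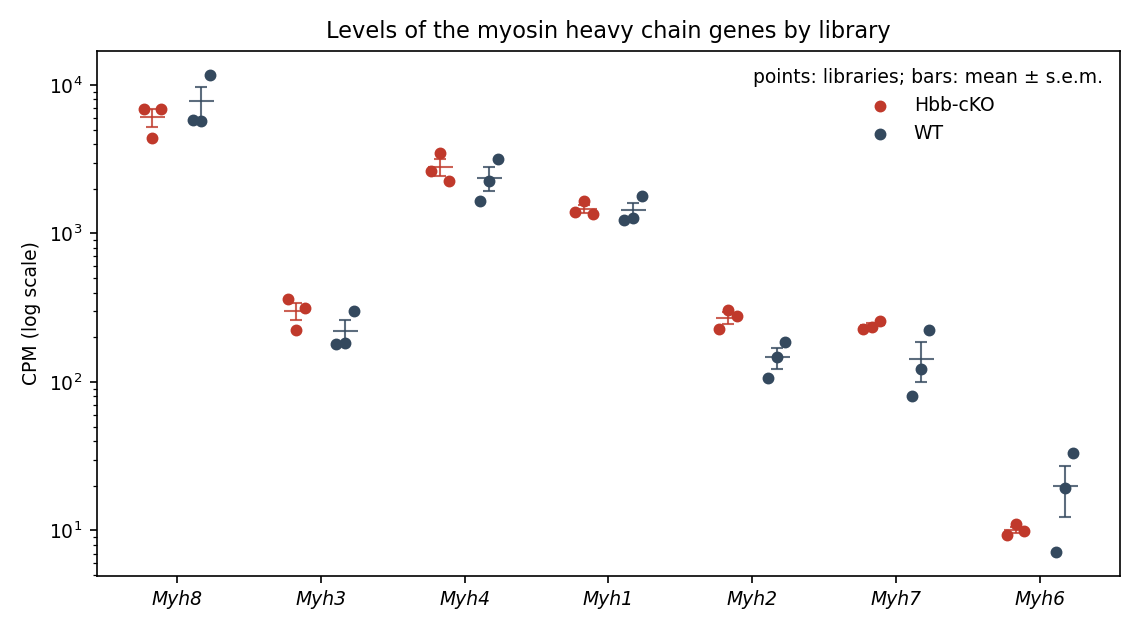
CPM on a log scale (vertical) of each myosin heavy chain gene (horizontal) in the 3 *Hbb*-cKO and 3 WT libraries, with points for libraries and bars for the mean ± s.e.m. The highest *Myh8* point is WT replicate 3 at 11744 CPM, and the *Myh2* points of the groups do not overlap.

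Summed over the 7 genes, the level was 11767, 10352 and 11375 CPM in the *Hbb*-cKO libraries, against 9096, 9732 and 17444 CPM in the WT libraries. WT replicate 3 was the highest and the other WT libraries were the lowest, so that the groups overlapped. The means were 11164 ± 422 CPM in *Hbb*-cKO, against 12091 ± 2683 CPM in WT (s.e.m., n = 3 each), a ratio of 0.923, which was 1.19 without WT replicate 3. The genes took 1.19%, 1.03% and 1.15% of all counts in *Hbb*-cKO, against 0.918%, 0.944% and 1.73% in WT. In bulk RNA, fewer muscle fibres in a library and less RNA per fibre cannot be told apart. Shares within the 7 genes, which divide out their summed level, are given beside each level. The library richest in muscle markers, WT replicate 3, also had the highest *Myh8* share (67.3%) and the poorest, *Hbb*-cKO replicate 2, the lowest (42.7%). The libraries between them did not follow this order. *Hbb*-cKO replicate 3 had a share of 60.8% beside 23983 CPM of muscle markers, and WT replicate 2 had 58.8% beside 30109 CPM. The part of muscle amount or of the muscles dissected in the shares was not tested.

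Across all genes, the quasi-likelihood test of edgeR, adjusted by Benjamini-Hochberg, called 18 of 17175 genes between *Hbb*-cKO and WT at an adjusted p under 0.05 (0.105%), of which 6 were higher in *Hbb*-cKO (0.0349%) and 12 were lower (0.0699%). It called 0 of the 7 myosin genes, and 1 of them, *Myh2*, had an unadjusted p under 0.05, as had 1737 of all tested genes (10.1%). DESeq2, which called 249 genes (1.45%), called *Myh2* as well. Of all tested genes, 8.70% were higher in every *Hbb*-cKO library than in every WT library by CPM, as were *Myh2* and *Myh7*, and 8.96% were lower, as were 0 of the 7. On simulated counts of this size edgeR recovered 20 of 50 genes that differed 2-fold and 43 of 50 that differed 4-fold, so that differences of 2-fold or less were often missed. The same simulation gave 13 false calls by edgeR and 37 by DESeq2.

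The isoform mixture was mainly perinatal and fast in every library. *Myh8* took 58.7%, 42.7% and 60.8% of the summed counts in the *Hbb*-cKO libraries, against 64.2%, 58.8% and 67.3% in the WT libraries. *Myh4* took 22.4%, 33.7% and 19.8% in *Hbb*-cKO, against 18.2%, 23.3% and 18.15% in WT. *Myh1* took 11.8%, 16.1% and 11.8% in *Hbb*-cKO, against 13.5%, 13.1% and 10.3% in WT. These 3 genes held most of the counts in each library, and their shares overlapped between the groups. The 95% Wilson interval of each share was at most 0.482 percentage points wide and covers counting error only, so that nearly all spread lies between libraries.

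**Figure D2:**
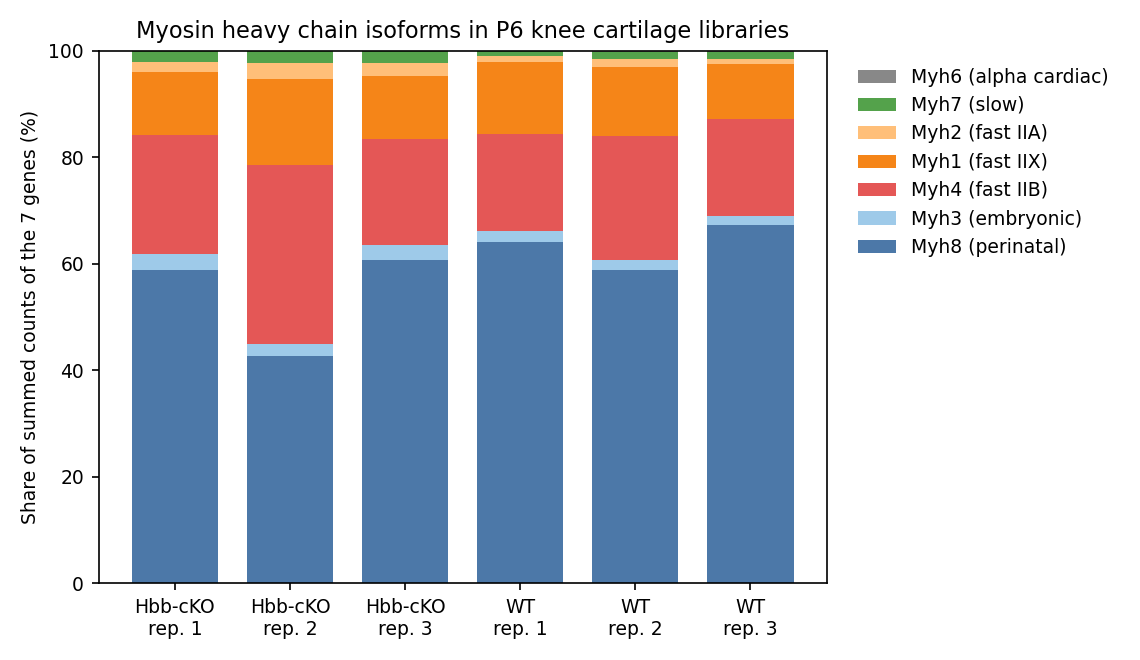
Share of each gene in the summed counts of the 7 genes (vertical, %) for each library (horizontal), stacked to 100%. *Hbb*-cKO replicate 2 has the smallest *Myh8* share, 42.7%, and the *Myh2* and *Myh7* bands at the top are wider in the 3 *Hbb*-cKO bars.

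Of the developmental chains, the perinatal gene *Myh8* was measured at 6912, 4422 and 6915 CPM in the *Hbb*-cKO libraries, against 5836, 5722 and 11744 CPM in the WT libraries. The groups overlapped, with WT replicate 3 far above the rest and *Hbb*-cKO replicate 2 the lowest. The log2 fold change of *Hbb*-cKO over WT was -0.35 (SE 0.32, edgeR adjusted p = 0.778). Without WT replicate 3 it was 0.07 and without *Hbb*-cKO replicate 2 it was -0.17. Its mean share was 54.1 ± 5.72% in *Hbb*-cKO and 63.4 ± 2.49% in WT (exact permutation test, two-sided p = 0.2, adjusted p = 0.35 over the 7 shares). With 3 libraries against 3 this test cannot give a p under 0.1, whatever the shares. The difference was -9.34 percentage points, and -3.66 without *Hbb*-cKO replicate 2.

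The embryonic gene *Myh3* was measured at 360, 224 and 316 CPM in the *Hbb*-cKO libraries, against 181, 183 and 299.6 CPM in the WT libraries. By CPM the groups overlapped through WT replicate 3, and the log2 fold change was 0.44 (SE 0.25, edgeR adjusted p = 0.601), or 0.72 without WT replicate 3. As a share of the 7 genes, *Myh3* took 3.06%, 2.16% and 2.78% in *Hbb*-cKO, against 1.99%, 1.88% and 1.72% in WT. The share was higher in each *Hbb*-cKO library than in each WT library, at 2.67 ± 0.265% in *Hbb*-cKO and 1.86 ± 0.0787% in WT (ratio 1.43). The exact permutation test gave p = 0.1, the smallest value that 3 libraries against 3 allow, and p = 0.233 after adjustment over the 7 shares. *Myh8* and *Myh3* thus did not keep 1 ratio: *Myh8* counts were 19.2, 19.8 and 21.9 times *Myh3* counts in *Hbb*-cKO, against 32.3, 31.2 and 39.2 times in WT. This ratio was lower in every *Hbb*-cKO library, by a log2 difference of -0.75 (SE 0.12, exact permutation p = 0.1, adjusted p = 0.15 over 3 ratios), and the gap between the groups was wider than the range within each of them.

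Of the adult fast chains, the IIA gene *Myh2* differed most. It was measured at 226, 307 and 279 CPM in the *Hbb*-cKO libraries, against 106, 147 and 186 CPM in the WT libraries. The lowest *Hbb*-cKO library lay above the highest WT library, and WT replicate 3, the library richest in muscle, was the nearest. The means were 271 ± 23.8 CPM in *Hbb*-cKO, against 147 ± 23.3 CPM in WT, with a log2 fold change of 0.89 (SE 0.22). By edgeR the unadjusted p was 0.00358 and the adjusted p 0.241, and by DESeq2 the adjusted p was 0.0134. As a share, *Myh2* took 1.92%, 2.97% and 2.45% in *Hbb*-cKO, against 1.16%, 1.51% and 1.07% in WT. The share was higher in every *Hbb*-cKO library (2.45 ± 0.302% in *Hbb*-cKO and 1.25 ± 0.135% in WT, ratio 1.96, exact permutation p = 0.1, adjusted p = 0.233).

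The IIB gene *Myh4* was measured at 2639, 3490 and 2253 CPM in the *Hbb*-cKO libraries, against 1653, 2267 and 3166 CPM in the WT libraries. The IIX gene *Myh1* was measured at 1391, 1662 and 1345 CPM in *Hbb*-cKO, against 1232, 1271 and 1792 CPM in WT. Both overlapped between the groups, with *Hbb*-cKO replicate 2 and WT replicate 3 the highest libraries of their groups. These were also the libraries with the most Y-linked counts. The log2 fold changes were 0.24 for *Myh4* (SE 0.27, edgeR adjusted p = 0.820) and 0.03 for *Myh1* (SE 0.19, edgeR adjusted p = 0.974). The *Myh4* value was 0.05 without *Hbb*-cKO replicate 2 or without WT replicate 1, and 0.51 without WT replicate 3. The *Myh1* value turned negative when any of *Hbb*-cKO replicate 2, WT replicate 1 or WT replicate 2 was left out, at -0.07, -0.06 and -0.03. The mean shares were 25.3% in *Hbb*-cKO and 19.9% in WT for *Myh4* (exact permutation p = 0.3) and 13.2% in *Hbb*-cKO and 12.3% in WT for *Myh1* (exact permutation p = 0.7). The *Myh4* share difference of 5.44 percentage points was 1.24 without *Hbb*-cKO replicate 2, and that of *Myh1* turned to -0.47. The neighbouring genes *Myh2*, *Myh1* and *Myh4*, which carry the 20-base run before their starts, had log2 fold changes of 0.89, 0.03 and 0.24. Differences between these values were not tested.

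The adult fast genes together held 0.585, 1.18 and 0.536 times the counts of the developmental genes in the *Hbb*-cKO libraries, against 0.497, 0.624 and 0.427 times in the WT libraries. *Hbb*-cKO replicate 2 was the only library with more adult fast than developmental counts. The groups overlapped (log2 difference 0.49, SE 0.39, exact permutation p = 0.3), and without *Hbb*-cKO replicate 2 the difference was 0.14.

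The slow gene *Myh7* was measured at 229, 236 and 258 CPM in the *Hbb*-cKO libraries, against 80.8, 122.5 and 223 CPM in the WT libraries. The *Hbb*-cKO libraries lay close together and above each WT library, though only just above WT replicate 3. The log2 fold change was 0.76 (SE 0.34, edgeR adjusted p = 0.521). It was 1.25 without WT replicate 3 and 0.49 without WT replicate 1. As a share, *Myh7* took 1.95%, 2.28% and 2.27% in *Hbb*-cKO, against 0.888%, 1.26% and 1.28% in WT. The groups were separated, at 2.17 ± 0.109% in *Hbb*-cKO and 1.14 ± 0.127% in WT (ratio 1.90, exact permutation p = 0.1, adjusted p = 0.233). Relative to the 5 genes of the chromosome 11 cluster, *Myh7* was 1.94-fold higher in *Hbb*-cKO (log2 difference 0.95, SE 0.19, exact permutation p = 0.1, adjusted p = 0.15 over 3 ratios).

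Its neighbour *Myh6* was measured at 9.32, 11.03 and 9.96 CPM in the *Hbb*-cKO libraries, against 7.19, 19.2 and 33.1 CPM in the WT libraries. The WT libraries spread widely and enclosed the *Hbb*-cKO libraries. The log2 fold change was -0.97 (SE 0.49, edgeR adjusted p = 0.562) and was -0.38 without WT replicate 3. The mean share was 0.0911% in *Hbb*-cKO and 0.155% in WT (exact permutation p = 0.4). Heart muscle was checked because both genes are expressed there. Of its 11 markers 5 passed the filter, and they and the others summed to 163, 108 and 129 CPM in *Hbb*-cKO, against 131, 139 and 139 CPM in WT, nearly all of it *Sln*, which skeletal muscle also makes. *Tnni3*, the cardiac troponin I gene, had 71, 83 and 76 counts in *Hbb*-cKO, against 54, 75 and 53 counts in WT. *Ryr2*, *Pln* and *Mybpc3* had at most 23 counts in any library, *Nppa*, *Gata4* and *Hcn4* at most 7, *Nppb* and *Myl7* at most 2, and *Nkx2-5* had 0 counts in each. Low counts of some heart markers thus stood beside 1349 to 5463 counts of *Myh7* and 120 to 573 counts of *Myh6*, and the part of heart muscle in either gene was not tested.

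**Figure D3:**
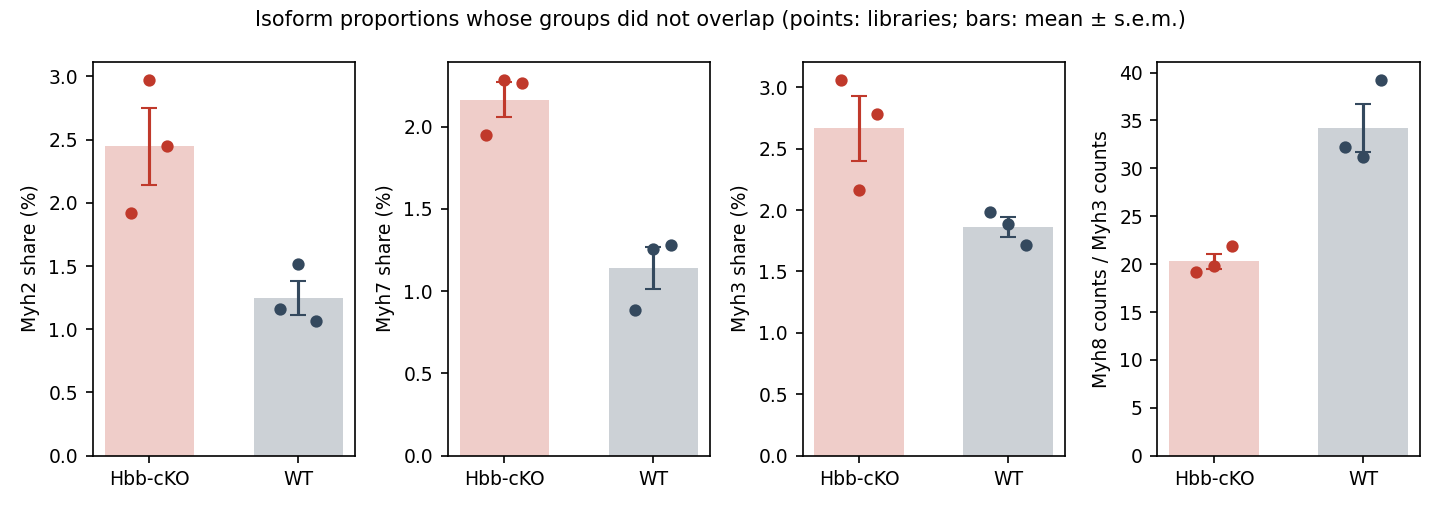
Share of *Myh2*, *Myh7* and *Myh3* in the summed counts of the 7 genes (vertical, %, first 3 panels) and the ratio of *Myh8* to *Myh3* counts (last panel) in *Hbb*-cKO and WT (horizontal), with points for libraries and bars for the mean ± s.e.m. from 0. Each of the 3 shares is higher in every *Hbb*-cKO library, and the ratio of 19.2 to 21.9 in *Hbb*-cKO lies below that of 31.2 to 39.2 in WT.

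The shares sum to 100% and are not independent of each other. By the same division, by the summed counts of the 7 genes, 3.06% of all tested genes were higher in every *Hbb*-cKO library and 2.40% were lower, against 3 and 0 of the 7 myosin genes. These 3 were *Myh2*, *Myh3* and *Myh7*. They are the minor isoforms, and the division moves with *Myh8*, which makes up most of the sum. As a second measure, chosen after the values were seen, the counts were divided by those of the 12 skeletal muscle markers, none of which is a myosin heavy chain. Per 1000 marker counts, *Myh2* had 7.56, 13.2 and 11.6 counts in the *Hbb*-cKO libraries, against 3.94, 4.89 and 4.34 counts in the WT libraries. *Myh7* had 7.66, 10.1 and 10.7 counts in *Hbb*-cKO, against 3.01, 4.07 and 5.20 counts in WT. *Myh3* had 12.02, 9.58 and 13.2 counts in *Hbb*-cKO, against 6.74, 6.08 and 6.97 counts in WT. For *Myh2* and *Myh3* the WT libraries, WT replicate 3 included, were close together on this scale. *Myh4* and *Myh1* were also higher in every *Hbb*-cKO library, by ratios of 1.57 and 1.34, while *Myh8* (ratio 1.04) and *Myh6* overlapped. By this division 16.4% of all tested genes were higher in every *Hbb*-cKO library and 1.01% were lower, beside 5 and 0 of the 7 myosin genes, and 11 of the 12 markers themselves had a negative log2 fold change.

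The genes of other sarcomere proteins had values of both signs. Of 12 fast fibre genes, 0 were called, 4 had an unadjusted p under 0.05 (10.1% of all tested genes had) and 12 of 12 had a negative log2 fold change, with a median of -0.34 beside -0.01 over all tested genes. By CPM, 2 of the 12 were lower in every *Hbb*-cKO library, as were 8.96% of all tested genes. The 12 genes summed to 18162, 14913 and 15056 CPM in *Hbb*-cKO, against 16595, 19444 and 24930 CPM in WT. WT replicate 3 was thus the highest, and values without it are not given for the 12 genes. Among them *Actn3*, which encodes the α-actinin of fast Z-discs, averaged 829 CPM in *Hbb*-cKO, against 1168 CPM in WT (log2 fold change -0.49, edgeR adjusted p = 0.371), and the fast troponin I gene *Tnni2* averaged 909 CPM in *Hbb*-cKO, against 1234 CPM in WT (log2 fold change -0.44, edgeR adjusted p = 0.473). The adult fast genes *Myh2*, *Myh4* and *Myh1* had values of 0.89 (SE 0.22), 0.24 (SE 0.27) and 0.03 (SE 0.19) beside these negative values for fast partners. The *Myh1* value turned negative in some fits with 1 library left out. The difference between the myosin genes and the fast partners was not tested. Of 11 slow fibre genes, 0 were called, 6 were positive and the median was 0.14. *Csrp3*, a muscle LIM protein gene, had 41.1, 37.6 and 43.0 CPM in *Hbb*-cKO, against 18.9, 25.8 and 39.7 CPM in WT (log2 fold change 0.53, edgeR adjusted p = 0.532), and *Ankrd2* and *Myoz2* had -0.69 and -0.66. Values of both signs thus stood beside that of *Myh7*.

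**Figure D4:**
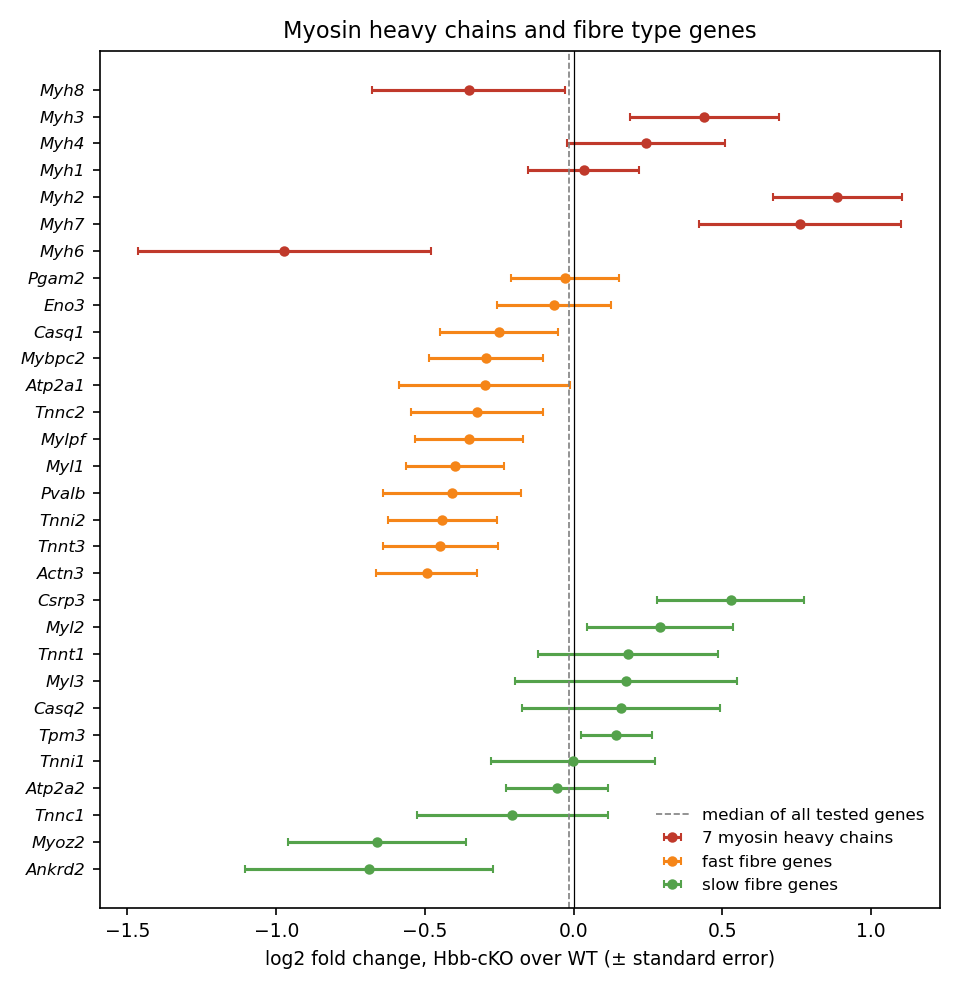
Log2 fold change of *Hbb*-cKO over WT with its standard error (horizontal) for the 7 myosin heavy chain genes, 12 fast fibre genes and 11 slow fibre genes (vertical), with the median of all tested genes as a dashed line. *Myh2* is the highest at 0.89, and the fast fibre genes all lie below 0.

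Of the other myosin heavy chain genes, 6 of 7 were tested, 0 were called and 5 were positive (median 0.30). The non-muscle genes *Myh9* and *Myh10*, which most cells express, were higher in every *Hbb*-cKO library. *Myh9* averaged 350 CPM in *Hbb*-cKO, against 271 CPM in WT (log2 fold change 0.37, edgeR adjusted p = 0.330), and *Myh10* averaged 123 CPM in *Hbb*-cKO, against 100.1 CPM in WT (0.30, edgeR adjusted p = 0.373). The third non-muscle gene, *Myh14*, was lower in every *Hbb*-cKO library, at 27.4 CPM on average in *Hbb*-cKO, against 32.2 CPM in WT (-0.23, edgeR adjusted p = 0.585). *Myh13*, the extraocular gene next in the chromosome 11 cluster, averaged 8.48 CPM in *Hbb*-cKO, against 6.88 CPM in WT (0.30), and *Myh7b* 9.52 CPM in *Hbb*-cKO, against 6.11 CPM in WT (0.64). *Myh15* was not tested and had 2, 4 and 4 counts in *Hbb*-cKO, against 0 in each WT library, too few for a fold change.

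The light chains and other thick filament genes had no call either. Of 13 light chain genes 12 were tested, 7 were positive and the median was 0.07, with *Myl1* of fast muscle at -0.40 and *Mylk2*, the skeletal light chain kinase, at -0.45. Of 14 thick filament partners and myosin chaperones, 9 were negative (median -0.21), among them *Mybpc2* of fast muscle at -0.29 and *Trim54* at -0.33, and *Trim55* was at 0.35. Of 9 fetal sarcomere and acetylcholine receptor genes, 6 were negative (median -0.14). The receptor subunit gene *Chrna1* averaged 31.0 CPM in *Hbb*-cKO, against 47.6 CPM in WT (log2 fold change -0.62, edgeR adjusted p = 0.355), *Tnnt2* was at -0.60 and *Chrne*, the adult receptor subunit, at -0.82. The positive ones were *Chrng*, the fetal receptor subunit, at 0.30, *Actc1* at 0.14 and *Myl4* at 0.02. Each of these 3 positive genes overlapped between the groups, while *Chrna1* was lower in every *Hbb*-cKO library, as was *Myl1*. Of all tested genes, 8.96% were lower in this way.

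No regulator of muscle was called. Of 11 myogenic regulators, 0 were called and the median was -0.03, with *Myog* at 0.19, *Cdh15* at 0.27 and *Myf6* at -0.39. Of 16 regulators of fibre type and thyroid hormone response, 15 were tested, 10 were negative and the median was -0.06. *Nfatc1*, a calcineurin target in slow fibres, was at -0.41, *Ppargc1a* at -0.45 and *Prox1* at 0.29, and none passed the test.

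Among the marker lists that move beside these values, 11 of 12 skeletal muscle markers were negative (median -0.37), led by the myoglobin gene *Mb* with means of 52.3 CPM in *Hbb*-cKO, against 80.8 CPM in WT (log2 fold change -0.63, edgeR adjusted p = 0.169, DESeq2 adjusted p = 0.00893). Of the 12, 2 were lower in every *Hbb*-cKO library, and their sum was highest in WT replicate 3, at 42974 CPM. The lists share genes, so their counts are not separate. *Tnni2* and *Mylpf*, for example, are also among the fast fibre genes. The medians were 0.03 for 12 cartilage markers, 0.10 for 5 tendon markers, 0.08 for 6 smooth muscle markers, 0.05 for the 5 tested heart markers and -0.56 for 4 of 5 Schwann cell markers. They were -1.31 for 7 erythroid markers, which include the targeted genes, and 1.92 for 7 neutrophil markers, which summed to 120.5, 26.0 and 101 CPM in *Hbb*-cKO, against 36.1, 25.2 and 16.4 CPM in WT. None of the genes in these lists was called by edgeR. DESeq2, which called 1.45% of all tested genes, called *Mb*, *Hbb-bs*, *Hbb-bt*, *Hba-a1*, *Hba-a2*, *Alas2*, *Ngp*, *Ltf* and *Chad*. *Chad*, a cartilage marker, was lower in every *Hbb*-cKO library (log2 fold change -0.93, DESeq2 adjusted p = 0.0048). The part of these differences in the myosin values was not tested.

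Across the 6 libraries, the 7 genes did not follow 1 pattern. The correlation of log2 CPM was 0.93 between *Myh7* and *Myh2*, 0.89 between *Myh4* and *Myh1* and 0.81 between *Myh7* and *Myh3*, but -0.11 between *Myh8* and *Myh2* (Pearson's r, a description over 6 libraries that share their depth and muscle content). Among 10674 other genes, the patterns most like the sum of the 7 were those of *Dusp27* and *Adprh* (r = 0.99 each), followed by *Stim1*, *Macrod1* and *Acadm* (0.99 each). The nearest pattern was that of *Csrp3* for *Myh7*, *Ptprf* for *Myh2*, *Acyp2* for *Myh4*, *Ccnt2* for *Myh1*, *Mt1* for *Myh3*, *Vrk3* for *Myh8* and *Fahd1* for *Myh6* (r = 0.99 each). Each of these is the highest of 10674 values over the same 6 libraries.

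The chains are similar in sequence, so that reads can be shared between them. Of the 50-base windows of the transcripts, 26.7% in *Myh2* and 26.1% in *Myh1* also occurred in another of the 7 genes, most often in each other. The share was 22.6% in *Myh6* and 22.2% in *Myh7*, which matched only each other, 19.9% in *Myh8*, 18.6% in *Myh4* and 3.66% in *Myh3*. *Myh3* was therefore the gene least open to such sharing, while *Myh2* counts could take in reads of the more abundant *Myh1*, whose log2 fold change was 0.03. The sources used here do not state how shared reads were counted.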

How the data were processed

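RNA sequencing of knee joint cartilage from P6 mice was analysed for 3 *Hbb*-cKO and 3 WT libraries, grouped by the genotype in the labels. The authors deposited 1 table of whole-number counts per gene, not normalized. In the processing notes of the submitters, the tools are HISAT2 2.1.0, fastp 0.19.5, CASAVA 1.8, edgeR and StringTie. The sources used here do not state their settings, the genome build or strand use. Of the identifiers shared with GENCODE M21 (GRCm38), 99.4% had equal positions.

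Genes were filtered by edgeR 4.0.16 (R 4.3.3; minimum count 10, minimum total 15) and fitted with TMM factors and a robust quasi-likelihood model, with Benjamini-Hochberg adjustment over 17175 genes and a threshold of 0.05. DESeq2 1.42.0 was an alternative, as were RLE factors, TMM without muscle genes, other filters, a replicate block and leaving out each library. Shares and ratios of counts were compared by exact two-sided permutation tests. The members, the 16 lists and the tests were chosen with earlier results of these data known. Named genes were the 7 members, from each list any gene called or else up to 3 genes with the smallest p, the genes of most similar pattern and genes that overlap a member. Values of *Myh7b*, *Myh13*, *Myh15*, *Sln*, the other heart genes, *Hba-a1*, *Hba-a2*, *Chrng*, *Actc1* and *Myl4* were added after they were seen. The tests were checked on simulated counts. Promoter windows are those of RefSeq for GRCm38.p6. Protein sequences were not analysed here.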

Additional observations from a re-analysis of the deposited data

How the results depend on the processing

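The count of genes called, 18, was 249 by DESeq2, 60 without the filter, 4 with a replicate block and 1 to 39 with 1 library left out, the highest without WT replicate 3. *Myh2* was the 1 myosin gene called by DESeq2 (log2 fold change 0.89, adjusted p = 0.0134). Same-numbered libraries correlated at -0.03, -0.11 and -0.03 in their deviations from the group means, so that no pairing by replicate number was seen. Deviations from means of 3 libraries cannot exclude such a pairing. With a library left out, *Myh1* ran from -0.07 to 0.23 in log2 fold change, being -0.0652 without *Hbb*-cKO replicate 2, -0.06 without WT replicate 1 and -0.03 without WT replicate 2. *Myh8* ran from -0.52 to 0.0748, the highest without WT replicate 3, and the difference in *Myh1* share from -0.47 to 1.65 percentage points, being -0.07 without WT replicate 3. The log2 difference in the ratio of *Myh8* to *Myh3* ran from -0.81 to -0.65 and that of *Myh7* to the clustered genes from 0.78 to 1.05. The cause of these shifts was not tested. Of 203 values recomputed under alternatives, 188 kept their direction and their side of the threshold or, for values with no test, moved by less than the spread between libraries. The summed level of the 7 genes was among these, at a log2 ratio of -0.28 to 0.25 with a library left out. With 3 libraries a group no share or ratio could reach a p under 0.1, and with pairs none under 0.25.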

Other observations

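Non-coding genes lie among the myosin heavy chain genes. *Myhas*, antisense to *Myh1* (chromosome 11, 67211256 to 67237573), had 87, 189 and 91 counts in the *Hbb*-cKO libraries, against 58, 88 and 99 counts in the WT libraries (log2 fold change 0.36, edgeR adjusted p = 0.780). *Hbb*-cKO replicate 2, the library with the largest *Myh4* and *Myh1* shares, was also the highest for *Myhas*. *9430073C21Rik*, antisense to *Myh2*, had 30, 33 and 31 counts in *Hbb*-cKO, against 11, 32 and 29 counts in WT (log2 fold change 0.17, edgeR adjusted p = 0.928). *2310065F04Rik*, a long intergenic RNA between *Myh3* and *Myh2*, had 37, 37 and 29 counts in *Hbb*-cKO, against 42, 43 and 106 counts in WT, lower in every *Hbb*-cKO library (log2 fold change -1.08, edgeR adjusted p = 0.400). *Mhrt*, antisense to *Myh7*, had 0, 5 and 5 counts in *Hbb*-cKO, against 3, 1 and 0 counts in WT. The sources used here do not state whether strand was used in counting, so reads of a gene and of its antisense partner may be mixed in these values.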
